A study of Mus musculus with 6 samples.

Results

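The genes described here encode the peroxisome proliferator-activated receptors (PPARs), the retinoid X receptors (RXRs) and other members of the nuclear receptor superfamily. They were chosen by symbol as 34 rows of a table of 19764 mouse genes: 3 PPARs, 3 RXRs, 3 retinoic acid receptors (RARs), 2 thyroid hormone receptors and 23 further receptors. The glucocorticoid, bile acid, oxysterol, xenobiotic and REV-ERB receptors, SHP, LRH-1 and HNF4A are outside the set. All 34 were present in the table, and 25 had enough reads to be tested.

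The samples were primary hepatocytes of Bl6/N mice, in 3 Control and 3 TNF libraries of polyA RNA sequenced from paired ends. Cells were plated at 400000 per well and kept for 16 h in starvation medium with 5 mM glucose. Control cells then received vehicle for 8 h and TNF cells 1 ng/ml TNF, an inflammatory cytokine. Both groups were treated over the same time with 1 µM corticosterone, a glucocorticoid receptor ligand, and 10 µM WY-14643, a PPARα ligand. Corticosterone had also been in the plating and maintenance media of all wells, which lacked dexamethasone. Every value below therefore describes TNF added to cells with PPARα and glucocorticoid receptor ligands present, and there was no group without them. Labels give no sex or age of the mice. They leave unsaid if the replicates are different animals or different cultures, so p-values may measure technical spread only. Library totals lay between 17612060 and 25114289 reads, and 3 reads, which is as many as a count of 0 still allows, corresponded to 0.124 to 0.166 CPM (reads scaled to library size). These limits cover counting error only.

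Nuclear receptors are transcription factors that carry a DNA-binding domain and, in most members, a pocket for a small lipid-soluble ligand such as a fatty acid, a retinoid or a steroid. PPARs, RARs, thyroid hormone receptors and the vitamin D receptor bind DNA as heterodimers with an RXR, so that RXR is their shared partner. In hepatocytes PPARα is known for switching on fatty acid oxidation and ketone body production in fasting, and RXRα is known as the main hepatic RXR.

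No member passed the test of TNF against Control with group as the only term (limma on log2(CPM + 1), adjusted p under 0.05 over all 12293 genes tested), where 0.431% of all genes passed, 0.358% higher and 0.0732% lower. Of the 25 tested members, 4 were at an unadjusted p under 0.05 in that fit (Rxra, Nr2f2, Thrb and Rarb, with lower means in TNF), and limma-voom on the reads also called 0. In the fit that also held the replicate number of the titles as a block, 6 of 25 passed, which is 24% beside 20.6% of all genes. Rxra, Nr2f2, Rarb, Thrb and Esrra were lower, 20% of the tested members beside 11.2% of all genes, and Ppard was higher, 4% beside 9.4%. The share called in both directions together was thus close to that of all genes, and is not a result about this set. Its split by direction rested on these few genes and was not tested. Below, "rose" and "fell" are used of these blocked calls only, with the unpaired adjusted p beside each receptor of the set. Of the other genes named below with "rose" or "fell", only Cyp4a10 also passed the unpaired fit.

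Differences were small and leaned downward. The log2 difference was below 0 in 21 tested members and above 0 in 4, with a median of -0.09 beside -0.01 over all genes tested. Of the 25, 12 were lower in TNF in every same-numbered pair of libraries (48%, beside 27.7% of all genes) and 2 were higher in every pair (8%, beside 23.4%), namely Ppara and Ppard. The 3 TNF libraries lay wholly below the 3 Control libraries for Rxra, Nr2f2 and Rara, which is 12% of the tested members beside 6.66% of all genes, and wholly above them for 0 members, beside 6.59%. The authors' deposited table, whose model is not given in the sources used here, listed 9 of the 34 at an adjusted p under 0.05, 8 of them lower. Over its 19764 genes 15.2% were listed so, 8.32% lower and 6.85% higher. Besides the 6 genes above, the 9 were Esr1, Rxrg and Nr3c2, each lower.

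**Figure D1:**
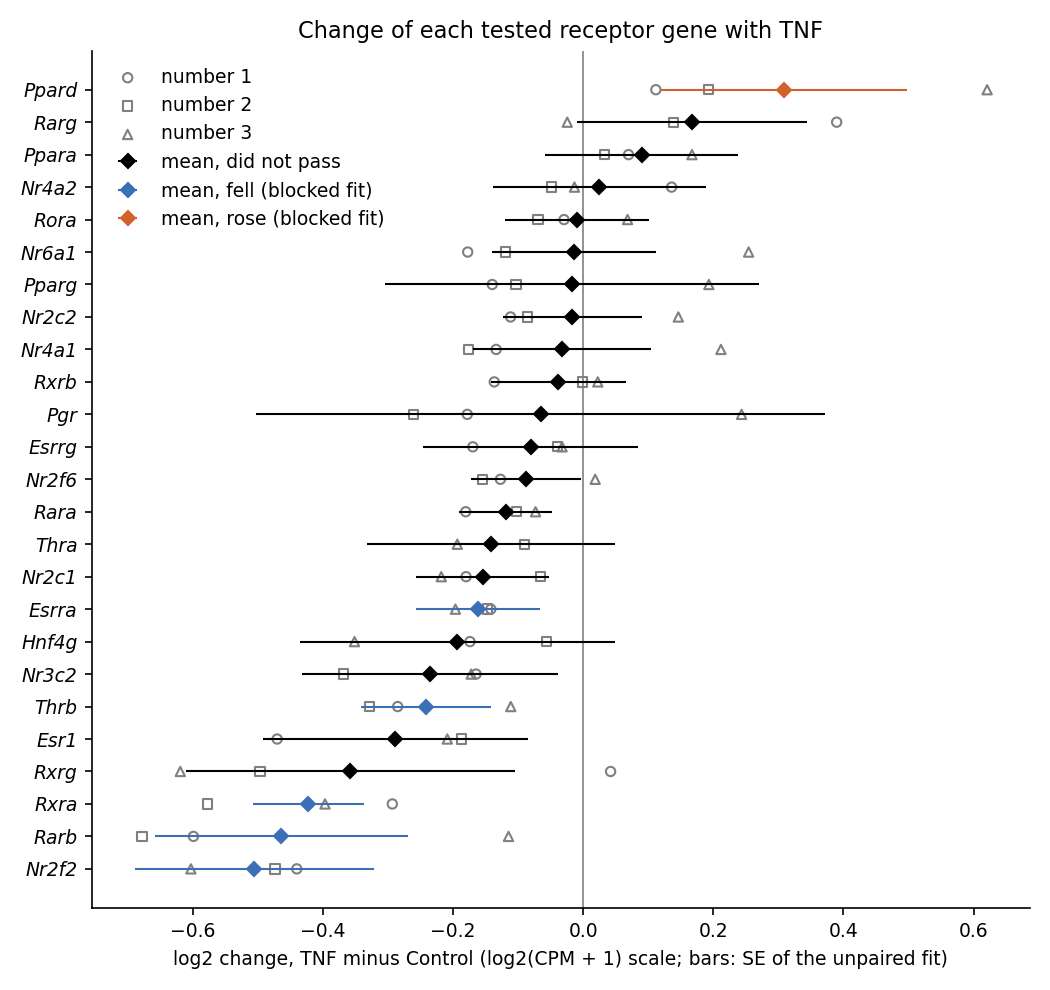
Log2 change from Control to TNF (horizontal axis, log2(CPM + 1) scale) of the 25 tested receptor genes. Diamonds are means over 3 libraries a group with the SE of the unpaired fit as bars, open symbols are the 3 same-numbered pairs, and blue and orange mark genes past the blocked fit. Rxra, Nr2f2 and Rarb lie left of -0.4, while Ppard has its mean at 0.31 and pairs between 0.11 and 0.62.

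The 250 bases before a start site of the 4 receptor genes with the largest blocked decreases, and of Ppard, the gene that rose, are shown from RefSeq (GRCm38.p6), 5′ to 3′ on the gene's strand, because these genes moved in opposite directions in the same cells. Capitals mark matches to the receptor hexamer AGGTCA and to a spaced repeat of the variant hexamer ends, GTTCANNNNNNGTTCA, both searched on either strand. The windows searched also held the 50 bases after the start.
Rxra, chr2:27676951-27677200, plus strand: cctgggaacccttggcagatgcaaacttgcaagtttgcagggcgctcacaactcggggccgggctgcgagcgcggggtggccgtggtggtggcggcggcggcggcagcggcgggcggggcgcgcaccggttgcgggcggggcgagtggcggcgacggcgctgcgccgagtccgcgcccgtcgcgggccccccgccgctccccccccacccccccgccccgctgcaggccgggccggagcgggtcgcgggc
Nr2f2, chr7:70366747-70366996, minus strand: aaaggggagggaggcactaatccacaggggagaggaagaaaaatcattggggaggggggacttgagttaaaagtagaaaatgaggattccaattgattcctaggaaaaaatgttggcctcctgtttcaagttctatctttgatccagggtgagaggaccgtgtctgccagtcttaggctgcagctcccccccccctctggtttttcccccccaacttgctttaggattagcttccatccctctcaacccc
Rarb, chr14:16575477-16575726, minus strand: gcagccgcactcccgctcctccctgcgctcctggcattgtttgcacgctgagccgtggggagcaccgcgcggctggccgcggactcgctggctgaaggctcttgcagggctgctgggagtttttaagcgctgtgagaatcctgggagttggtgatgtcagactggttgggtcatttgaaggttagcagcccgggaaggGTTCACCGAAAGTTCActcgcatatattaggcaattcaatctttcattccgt
Thrb, chr14:17660710-17660959, plus strand: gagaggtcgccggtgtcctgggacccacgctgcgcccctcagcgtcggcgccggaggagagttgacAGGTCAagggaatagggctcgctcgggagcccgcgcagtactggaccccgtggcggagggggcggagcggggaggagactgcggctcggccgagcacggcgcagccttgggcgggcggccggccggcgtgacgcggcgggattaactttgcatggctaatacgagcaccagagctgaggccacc
Ppard, chr17:28232504-28232753, plus strand: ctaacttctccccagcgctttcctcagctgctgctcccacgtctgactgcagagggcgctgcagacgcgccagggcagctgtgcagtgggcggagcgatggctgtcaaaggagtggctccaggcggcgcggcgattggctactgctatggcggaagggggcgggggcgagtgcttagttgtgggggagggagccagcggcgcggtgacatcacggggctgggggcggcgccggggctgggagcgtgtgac
The Rarb window held the spaced repeat, with its leading base at -52 from the start site. This arrangement is the kind that RAR-RXR heterodimers are known to bind. It occurred in 25 of the 32851 windows of the same 300 bases (0.0761%) and in 1 of the 31 members with a window. The letters searched are those of the retinoic acid element known from Rarb itself. A match in Rarb was therefore fixed in advance, and its rarity among windows is not a result. The Rarb start site shown lies 506855 bases inside the gene as the table bounds it, so the reads counted for Rarb also cover transcripts from starts further upstream. In the Thrb window the hexamer AGGTCA began at -184. That hexamer occurred in 16.3% of all windows and in those of 8 members, and it was not in the Rxra, Nr2f2 or Ppard windows shown. A second Rxra window, at a start site 32091 bases downstream, held it at 2 places. A κB-type sequence, GGGNNTTTC, of the kind NF-κB is known to bind, occurred in 4.36% of all windows and in those of 3 members, Esr2, Esrrb and Nr3c2. A form with a further C at its end was searched before it and occurred in 1.63% of all windows and in 1 member, Esrrb; the shorter form was added with that result known. Neither form was in a window of the 6 genes past the blocked fit. The GC box GGGCGG was in windows of 20 members, beside 35.7% of all windows, and the TATA box TATAAA in 6, beside 13.6%. The CRE TGACGTCA was in 1 member's window (Nr6a1), beside 1.79% of all windows. Motifs were searched independently, so matches of different motifs may overlap. A member counted as matching if any of its windows held the motif, and some members had several windows. The member counts are therefore not on the same footing as the shares of all windows. Among the 5 genes shown, base composition ran from 83% G and C in the 300-base Rxra window to 49.7% in that of Nr2f2, beside a median of 52.7% over all windows. A match describes letters only, and where none was found the letters are not in this window.

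Among the PPARs, Ppard rose and Ppara and Pparg did not pass the test. Ppara, the receptor for the WY-14643 given to all cells, measured 97.9, 133 and 122 CPM in Control 1, 2 and 3, and 103, 136 and 137 CPM in TNF 1, 2 and 3. The groups overlapped, and each TNF library was slightly above its same-numbered Control. The log2 difference was 0.09 (SE 0.15 in the unpaired limma fit), with an adjusted p of 0.995 unpaired and 0.117 with the block.

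Ppard encodes PPARδ, a receptor for fatty acids found in most tissues. It measured 69.1, 46.2 and 47.4 CPM in Control and 74.8, 53.0 and 73.4 CPM in TNF. Control 1 was above TNF 2, so the groups overlapped, but each pair had the TNF library higher, by 0.11, 0.19 and 0.62 on the log2 scale. The mean difference was 0.31 (SE 0.19), with an adjusted p of 0.819 unpaired and 0.00829 with the block. Most of the size came from number 3: without it the blocked log2 difference was 0.15 with an adjusted p of 0.0678. With no filter on low counts the blocked adjusted p was 0.0896. Ppard (chr17:28232754-28301469, mm10, plus strand) was counted over only 27847 of its 68716 bases, and the reason is not known here. GENCODE held no gene overlapping it, while the spans of other genes in the deposited table were not searched for overlaps.

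Pparg, the adipocyte PPAR, which liver cells carry at a low level, measured 6.85, 13.2 and 8.71 CPM in Control and 6.13, 12.2 and 10.1 CPM in TNF. Its spread followed the replicate number, not the treatment: the mean of the libraries numbered 1, 2 and 3 was 6.49, 12.7 and 9.41 CPM, a ratio of 1.95 between highest and lowest. The log2 difference between groups was -0.02 (SE 0.29), with an adjusted p of 0.999 unpaired and 0.937 with the block.

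Rxra fell, Rxrb did not move beyond its spread, and Rxrg had a lower mean that did not pass. Rxra (chr2:27677201-27763319, plus strand, NM_011305) encodes RXRα, the shared partner named above. It measured 181, 222 and 191 CPM in Control 1, 2 and 3, and 148, 148 and 145 CPM in TNF 1, 2 and 3. All TNF libraries were below all Control libraries, and they were close together (147 ± 1.99 CPM, SD, n = 3) where the Controls were spread (198 ± 21.4, SD, n = 3). The log2 difference was -0.42 (SE 0.08), a change of -25.4% on the log2(CPM + 1) scale, with an adjusted p of 0.114 unpaired and 1.24e-05 with the block. It passed in 11 of 11 alternatives to the blocked fit, between -0.49 and -0.34.

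Rxrb, the widely expressed RXRβ, measured 82.7, 91.8 and 76.0 CPM in Control and 75.1, 91.7 and 77.2 CPM in TNF. The number 2 libraries were the high ones in either group. Its log2 difference was -0.04 (SE 0.10), with an adjusted p of 0.999 unpaired and 0.594 with the block. Rxrg, the RXR known mainly from muscle and brain, was far lower, at 6.85, 6.16 and 5.30 CPM in Control and 7.08, 4.08 and 3.11 CPM in TNF. Pairs 2 and 3 were lower in TNF and pair 1 was not. The log2 difference was -0.36 (SE 0.25), with an adjusted p of 0.882 unpaired and 0.0733 with the block. Without number 1 it was -0.56 with a blocked adjusted p of 0.00319. The difference between the Rxra and Rxrb changes was not tested.

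**Figure D2:**
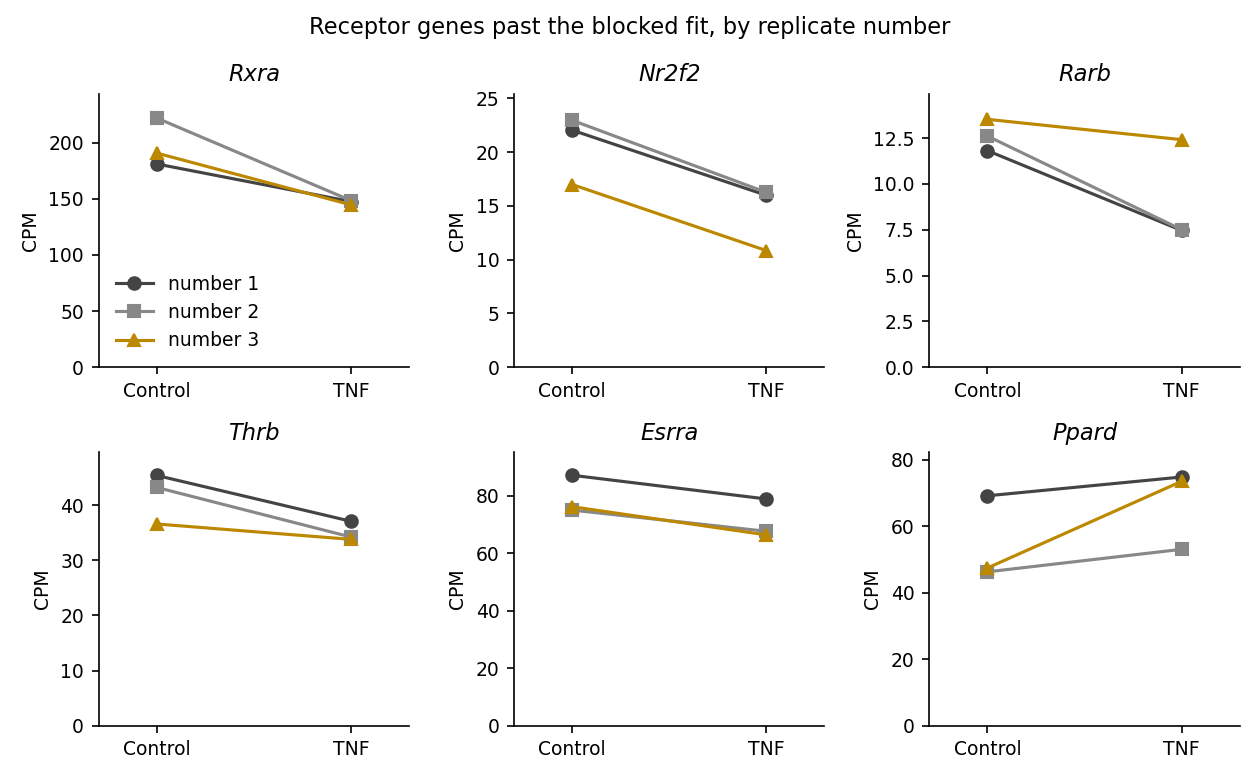
CPM (vertical axes, from 0) of the 6 receptor genes past the blocked fit in Control and TNF libraries, joined by replicate number. The 3 lines of Rxra, Nr2f2, Rarb, Thrb and Esrra go down and those of Ppard go up; Rarb number 3 (13.5 to 12.4 CPM) and Ppard number 3 (47.4 to 73.4 CPM) depart from the other lines of their panels.

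Of the RARs, which turn genes on when bound by retinoic acid, Rarb fell and Rara and Rarg did not pass. Rarb (chr14:16430840-17082331, minus strand, NM_001289761) encodes RARβ, itself a textbook target of retinoic acid. It measured 11.8, 12.6 and 13.5 CPM in Control and 7.47, 7.51 and 12.4 CPM in TNF. TNF 1 and TNF 2 were below every Control library, while TNF 3 was within their range. The log2 difference was -0.46 (SE 0.19), with an adjusted p of 0.560 unpaired and 0.00825 with the block. The pairs differed among themselves with an SD of 0.30. The blocked SE of their mean was 0.11, a measure unlike an SD, and it leans on the spread shared over genes. Without number 2 the blocked adjusted p was 0.0791 at -0.36, and with no filter on low counts it was 0.0722. In GENCODE, Rarb overlaps 4623 bases of Top2b on the other strand. Top2b measured 130 ± 18.5 CPM in Control and 121 ± 20.3 in TNF (SD, n = 3), with a log2 difference of -0.10 and a blocked adjusted p of 0.0818. An antisense transcript, Gm48162, also lies within Rarb, and since the strand setting of the counts is not known, reads of the strands cannot be told apart.

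Rara, the RAR of most cell types, varied little in Control, at 43.0, 42.4 and 43.7 CPM, and measured 37.8, 39.4 and 41.5 CPM in TNF. The groups did not overlap, but the difference was small: -0.12 on the log2 scale (SE 0.07), with an adjusted p of 0.807 unpaired and 0.126 with the block. Rarg, known best from skin, measured 6.85, 5.71 and 6.13 CPM in Control and 9.28, 6.38 and 6.01 CPM in TNF. TNF 1 stood above the other 5 libraries, and the log2 difference of 0.17 (SE 0.18) had a blocked adjusted p of 0.335.

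Thyroid hormone receptors bind triiodothyronine, and Thrb is known as the main form of liver. Thrb (chr14:17660960-18038088, plus strand, NM_001113417) measured 45.4, 43.2 and 36.6 CPM in Control and 37.1, 34.2 and 33.8 CPM in TNF. It fell: TNF was lower in each pair, by 0.28, 0.33 and 0.11 on the log2 scale, and the groups touched only where TNF 1 was above Control 3. The mean log2 difference was -0.24 (SE 0.10), with an adjusted p of 0.547 unpaired and 0.00779 with the block. Without number 2 the blocked adjusted p was 0.0738 at -0.20. Thrb overlaps the antisense transcript Gm48321 over 90772 bases in GENCODE, and the same limit on strand holds. Thra, the form known from heart and bone, measured 11.8, 8.23 and 8.37 CPM in Control and 10.6, 7.67 and 7.20 CPM in TNF. It was lower in each pair, but the log2 difference of -0.14 (SE 0.19) had a blocked adjusted p of 0.339. Rarb and Thrb are neighbours on chromosome 14, 578.628 kb apart, and Thra and Rara lie 172.584 kb apart on chromosome 11.

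The vitamin D receptor Vdr, the RXR partner that senses calcitriol, was at 0 reads in Control 1, TNF 1 and TNF 2 and at 1 read in the other libraries, within the 3 reads that a count of 0 allows. Rora, a clock and lipid metabolism receptor that binds DNA alone, was among the high members at 125, 157 and 128 CPM in Control and 123, 149 and 134 CPM in TNF. The number 2 libraries were high in either group, the log2 difference was -0.01 (SE 0.11), and the blocked adjusted p was 0.891. Rorb, the neural ROR, gave 3, 0 and 2 reads in either group.

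Among orphan receptors, which have no agreed natural ligand, Nr2f2 fell. Nr2f2 (chr7:70351950-70366746, minus strand, NM_183261) encodes COUP-TFII, known for vein identity and for its presence in mesenchymal cells. It measured 22.04, 22.96 and 17.0 CPM in Control and 16.0, 16.3 and 10.8 CPM in TNF. Every TNF library was below every Control library, and the pairs were alike, at -0.44, -0.47 and -0.60 on the log2 scale. The mean log2 difference of -0.51 (SE 0.18) was the most negative among the tested members, a change of -29.6%, with an adjusted p of 0.461 unpaired and 0.000257 with the block. It passed in 11 of 11 alternatives to the blocked fit, between -0.54 and -0.41. Nr2f2 was counted over 90.8% of its span, and the transcript B130024G19Rik overlaps 1837 bases of it on the other strand.

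Nr2f2 is also expressed outside hepatocytes, so markers of other cells stand beside it here. Stellate cell and fibroblast markers (15 in the table, 6 tested, none at 0 in all libraries) summed to 24.6, 75.7 and 69.3 CPM in Control and 26.0, 52.7 and 45.2 CPM in TNF. Reln, which made up most of this sum, fell by 0.38 on the log2 scale. With Reln the sum was higher in TNF in pair 1 and lower in the other pairs. Without Reln, left out after its values were seen, the sum was lower in each pair. It was then 9.50, 13.4 and 10.7 CPM in Control and 9.24, 12.2 and 8.82 CPM in TNF. Endothelial markers (18 in the table, 16 tested, none at 0) summed to 145, 150 and 251 CPM in Control and 163, 157 and 257 CPM in TNF, with 2 higher (Stab1, Oit3) and 1 lower (Stab2) by the blocked fit and a median log2 difference of -0.06. The sum was higher in TNF in each pair with Stab1 and lower in each pair without it (130, 134 and 222 CPM in Control, 125, 131 and 212 CPM in TNF), Stab1 also being left out after its values were seen. Macrophage markers (18 in the table, 3 tested, Ccr2 at 0) summed to 348, 366 and 430 CPM against 376, 411 and 477, with Cd14 higher by 0.76. Most of the 18 thus had too few reads to be tested, so the sum rested largely on the 3 tested genes. These had a median log2 difference of 0.06, with 2 not called by the blocked fit. A macrophage sum without Cd14 was not made. Cholangiocyte markers (11 in the table, 5 tested) summed to 63.0, 53.0 and 62.1 CPM against 67.2, 56.1 and 76.4, with Sox9 higher and Pkhd1 lower by the blocked fit. Lymphocyte and neutrophil markers (17 in the table, 0 tested, 7 at 0) summed to between 0.239 and 1.10 CPM. Hepatocyte markers (17 tested) summed to 40437, 60570 and 59668 CPM in Control and 37497, 52647 and 54358 CPM in TNF, lower in each pair, with 8 lower and 0 higher by the blocked fit, 0 called by the unpaired fit and a median log2 difference of -0.18. The part of these cell types in the Nr2f2, Rarb and other receptor results was not tested, and in bulk RNA fewer cells of a type and less RNA per cell cannot be told apart.

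Nr2f6, a COUP-TF relative known as a repressor, was among the highest members and did not pass. It measured 159, 180.5 and 151 CPM in Control and 145, 162 and 153 CPM in TNF, with a log2 difference of -0.09 (SE 0.09) and a blocked adjusted p of 0.134. Without number 3 it was -0.14 with a blocked adjusted p of 0.0244. Ocel1 overlaps 5243 of the 7834 counted bases of Nr2f6 on the other strand in GENCODE, and the strand limit given for Rarb holds here too. The testicular receptors Nr2c1 and Nr2c2 are orphan repressors and activators of wide expression. Nr2c1 measured 30.4, 33.5 and 35.8 CPM in Control and 26.8, 32.0 and 30.7 CPM in TNF, lower in each pair but with a blocked adjusted p of 0.0821. Nr2c2 measured 38.4 to 44.1 CPM in Control and 35.5 to 45.2 in TNF, and Nr6a1, the germ cell nuclear factor, 29.99 to 33.1 CPM and 27.5 to 37.8. Neither passed (blocked adjusted p of 0.885 and 0.927).

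Hnf4g, a relative of the main hepatocyte regulator HNF4A, was near the lower limit of testing, at 0.207 to 0.884 CPM in Control and 0.161 to 0.670 in TNF. Low counts were also found for Nr2f1 (1, 2 and 4 reads in Control, 2, 1 and 6 in TNF) and for Nr5a1, the steroidogenic factor SF-1 (1, 6 and 18 reads in Control, 4, 1 and 16 in TNF). For Nr5a1 the high libraries carried number 3 in either group, and its neighbour Nr6a1 lies 8.831 kb away on chromosome 2. Nr2e3, the photoreceptor receptor, and Nr0b1, the adrenal and gonadal repressor DAX-1, had no read in any library.

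**Figure D3:**
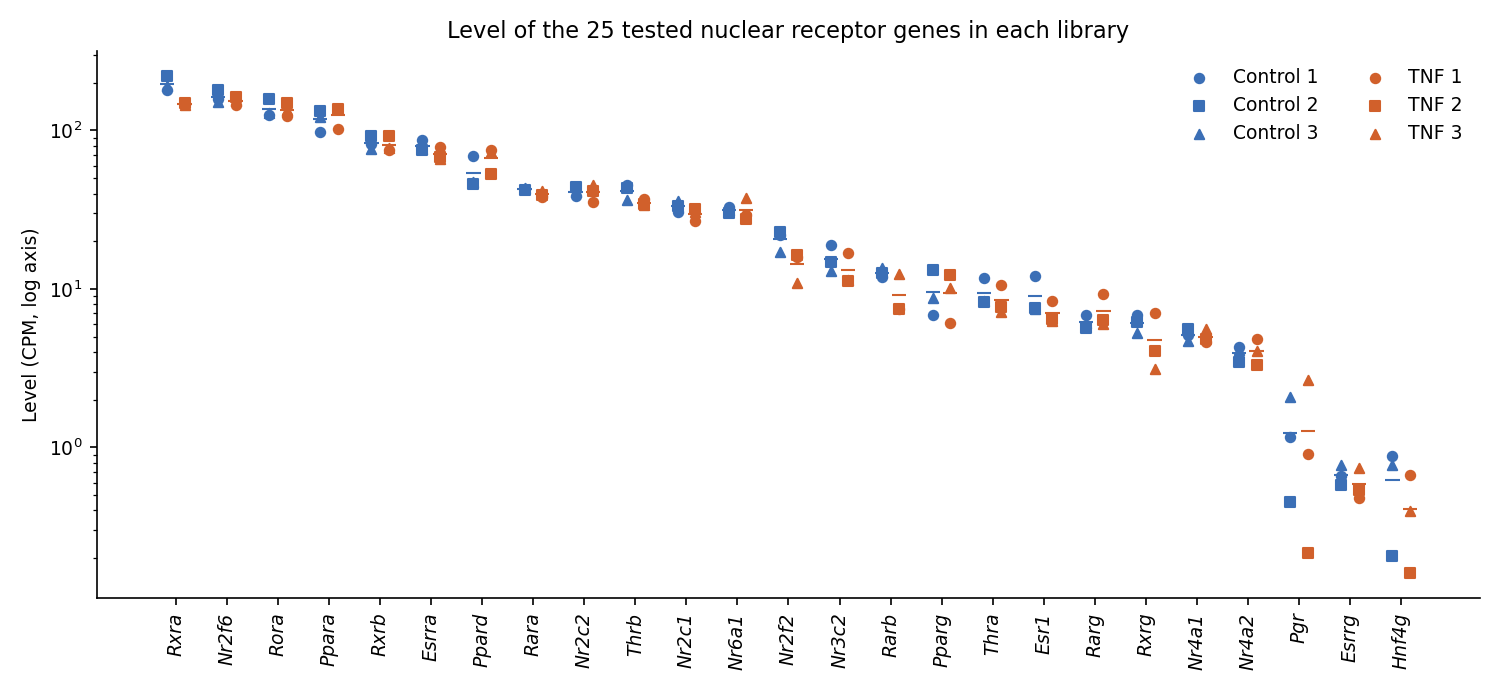
CPM (vertical axis, log scale) of the 25 tested receptor genes in each of the 6 libraries, ordered by mean level, with short lines at group means. Rxra, Nr2f6, Rora and Ppara have Control means above 100 CPM, Pgr, Esrrg and Hnf4g lie near 1 CPM, and for most genes the Control and TNF libraries overlap.

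Of the estrogen-related receptors, orphan activators of mitochondrial genes that work with the PGC-1 coactivators, Esrra fell. Esrra (chr19:6910977-6921808, minus strand, NM_007953) measured 87.2, 75.1 and 76.3 CPM in Control and 79.0, 67.7 and 66.4 CPM in TNF. The groups overlapped because the number 1 library was the highest in each, but the pair differences were nearly equal, at -0.14, -0.15 and -0.20 on the log2 scale. The mean was -0.16 (SE 0.10), a change of -10.6%, with an adjusted p of 0.799 unpaired and 0.00996 with the block. Without number 3 the blocked adjusted p was 0.0550 at -0.14. Esrrg measured 0.579 to 0.779 CPM in Control and 0.479 to 0.739 in TNF and did not pass, and Esrrb, the pluripotency-associated member, gave 2 to 18 reads a library.

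The steroid receptors did not pass. Esr1, the estrogen receptor known from liver, measured 12.0, 7.53 and 7.45 CPM in Control and 8.37, 6.49 and 6.31 CPM in TNF. Control 1 was apart from the others, and TNF was lower in each pair. The log2 difference was -0.29 (SE 0.20), with a blocked adjusted p of 0.0641, while the authors' deposited table gave a log2 fold change of -0.34 and an adjusted p of 0.00822. Nr3c2, the mineralocorticoid receptor, which also binds corticosterone, measured 18.9, 14.8 and 12.9 CPM in Control and 16.8, 11.2 and 11.3 CPM in TNF. It too was lower in each pair, with a mean log2 difference of -0.23 (SE 0.20) and a blocked adjusted p of 0.0641. Pgr, the progesterone receptor, followed the replicate number: the means of numbers 1, 2 and 3 were 1.03, 0.335 and 2.38 CPM, a ratio of 7.10, against group means of 1.24 ± 0.82 CPM in Control and 1.26 ± 1.26 in TNF (SD, n = 3). Esr2 gave 6 to 10 reads a library.

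The NR4A receptors are immediate-early genes that rise within minutes of many stimuli and act without a ligand. At 8 h, Nr4a1 measured 5.14, 5.58 and 4.67 CPM in Control and 4.59, 4.83 and 5.57 CPM in TNF, and Nr4a2 4.31, 3.47 and 4.09 CPM against 4.83, 3.33 and 4.04. The groups overlapped for either gene, with log2 differences of -0.03 (SE 0.14) and 0.02 (SE 0.16) and blocked adjusted p of 0.888 and 0.914. Nr4a3 gave 1 to 8 reads a library. Of 14 tested genes in a list of NR4A inducers and activity genes, which includes Nr4a1 and Nr4a2 themselves, 4 rose and 0 fell: Junb (log2 0.72), Egr1 (0.69), Pde4b (0.62) and Ier2 (0.21). The list's median was 0.03, and in the unpaired limma fit 0 of the 14 passed.

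Which PPAR, RXR or thyroid hormone receptor was the most abundant could not be settled from these counts. Levels between genes are comparable only per length, and the length is uncertain. The counted length in the table equals the whole gene span, introns included, for 26 of the 34 members and part of it for 8, among them Ppard. Per kilobase (kb) of counted length, Rxrb was above Rxra in Control, at 12.7 against 2.30 CPM per kb, whereas per kb of annotated exons Rxra was above Rxrb, at 36.2 against 21.0. The share of Rxra in the RXR total went from 15.2% in Control to 12.0% in TNF by counted length and from 60.5% to 54.4% by exon length. For the PPARs, Ppard was above Ppara per kb counted (1.95 against 1.65) and Ppara above Ppard per kb of exons (30.7 against 7.22). Ppara made up 44.9% of the PPAR total in Control by counted length and 74.6% by exon length. Thrb made up 21.4% of the thyroid hormone receptor total by counted length and 73.3% by exon length. Nr2f6 was at the top of the 25 by either length, at 20.9 and 54.8 CPM per kb, though reads of the overlapping Ocel1 may be among them. Rara led the RARs by either length, with 79.6% and 71.8% of the RAR total in Control. These order statements are descriptions, and changes between groups within a gene do not depend on its length.

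**Figure D4:**
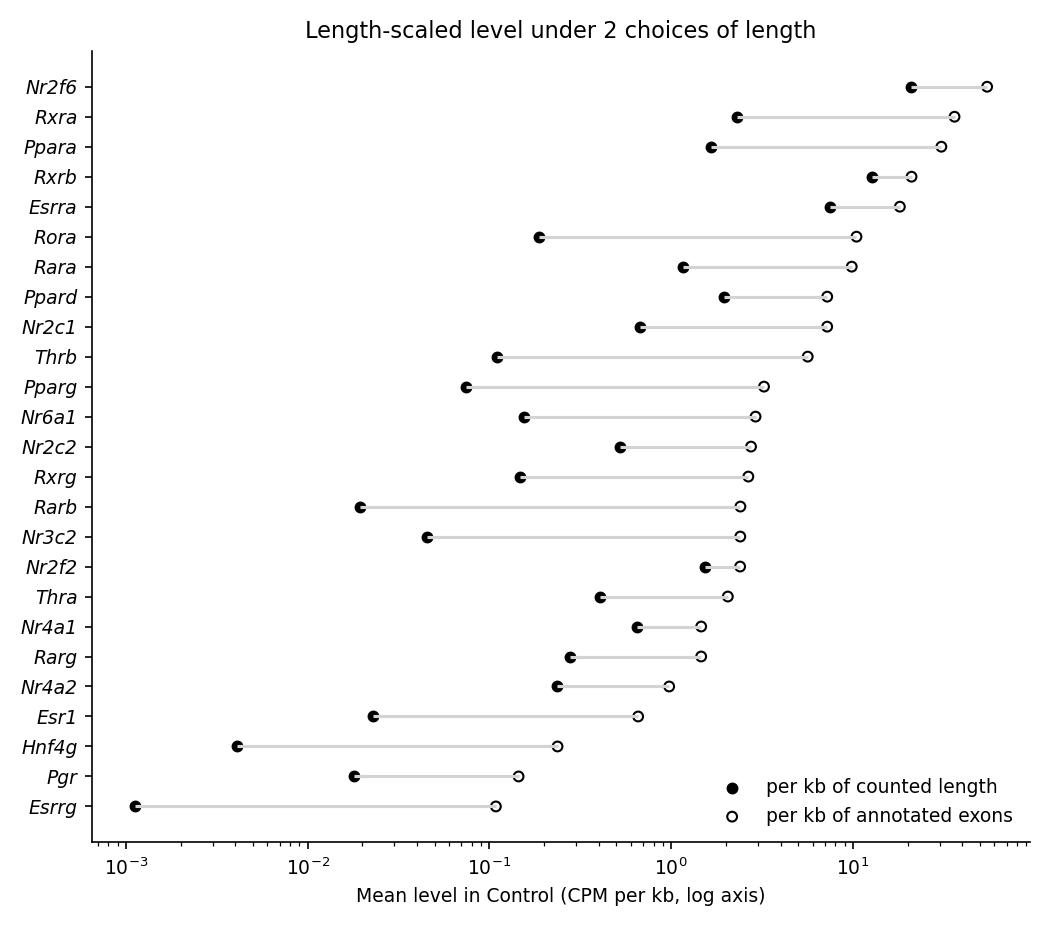
Mean Control level of the 25 tested receptor genes per kb of counted length (filled) and per kb of annotated exons (open), in CPM per kb on a log axis. The distance between the points is short for compact genes such as Rxrb (12.7 and 21.0) and long for genes with large introns such as Rarb (0.0194 and 2.40), so the order of genes differs between the measures.

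The genes that these receptors are known to act on, or that make and carry their ligands, were described by the same fits, in which the block called 9.4% of all genes higher and 11.2% lower. Of 49 tested PPAR target genes, 33 fell and 5 rose by the blocked fit, with a median log2 difference of -0.21 beside -0.01 for all genes, and 1, Cyp4a10, passed the unpaired fit. Those that fell included Cyp4a14 (-2.26) and Cyp4a10 (-2.11), fatty acid omega-hydroxylases, and Acot3 (-1.01), a peroxisomal thioesterase. Cyp4a10 went from 27.5 ± 7.55 CPM in Control to 5.77 ± 2.59 in TNF (SD, n = 3), with an unpaired adjusted p of 0.0371. Lpl (0.78), which releases fatty acids from lipoproteins, Fgf21 (0.39), a fasting hormone, Acaa1a (0.24) and the lipid droplet protein Plin2 (0.22) rose. Acot3, Lpl and Fgf21 were low, with Control means of 4.29, 2.31 and 4.23 CPM and TNF means of 1.55, 4.80 and 5.94. For Lpl, TNF 1 stood highest, at 7.66 CPM. The log2 differences of this list stand beside a Ppara difference of 0.09 that did not pass.

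Of 21 tested retinoid handling and RAR target genes, 8 fell and 1 rose by the blocked fit (median -0.12), and 0 passed unpaired. Among those that fell were Aldh8a1 (-1.12), an aldehyde dehydrogenase, and Dhrs3 (-0.82), which returns retinal to retinol and is a known retinoic acid target. Bco2 (-0.54), a carotenoid oxygenase, and Retsat (-0.32), the retinol saturase that is also in the PPAR list, fell too. Aldh1a7 (0.44) rose. Of 17 tested thyroid hormone genes, 3 rose and 3 fell by the blocked fit (median -0.08), and 0 passed unpaired. Those that rose included the carrier Serpina7 (0.93) and Bcl3 (0.23), which is also in the NF-κB list. Klf9 (-0.29), a known thyroid hormone target, Slc16a10 (-0.12) and Ttr (-0.11), a carrier also in the retinoid list, fell. Serpina7 varied with the replicate number, at 55.7 ± 47.4 CPM in Control and 105 ± 89.9 in TNF (SD, n = 3). Of 4 tested vitamin D genes 1 fell, Cyp27a1 (-0.20), a sterol hydroxylase.

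Of 17 tested PGC-1 and estrogen-related receptor genes, which include Esrra itself, 5 fell and 0 rose by the blocked fit (median -0.08). They included Acadm (-0.25), of fatty acid oxidation and also in the PPAR list, Mfn2 (-0.20), of mitochondrial fusion, Esrra, and Sdhb (-0.11), of respiratory complex II. In the unpaired fit 0 of the 17 passed. Of 8 tested estrogen and mineralocorticoid receptor partners and targets, 3 fell and 1 rose by the blocked fit, and 0 passed unpaired: Sgk1 (-0.93), a kinase induced by corticosteroids, Lifr (-0.22) and Igfbp4 (-0.12) fell, and Hsd17b2 (0.38), which inactivates estradiol, rose.

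Receptors outside the set were read from the same fits. Of 13 tested, 5 fell and 1 rose by the blocked fit and 0 passed unpaired, with a median of -0.07. Nr1i3 (the receptor CAR) went from 12.9 ± 4.598 to 4.48 ± 1.75 CPM, a log2 difference of -1.33 that was more negative than that of any member. Nr1h4 (FXR, -0.53), Nr1i2 (PXR, -0.51) and Hnf4a (-0.43) had differences of the size of Rxra and Nr2f2, and Nr5a2 (LRH-1, 0.31) that of Ppard. The difference between these genes and the members was not tested. In the same libraries, 21 of 21 tested NF-κB response genes rose by the blocked fit and 12 by the unpaired fit, with a median log2 difference of 0.90.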

How the data were processed

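Per the submitters' processing notes, STAR 2.6.1a aligned the reads of the 6 polyA libraries to mm10. How reads were counted, on which annotation and with what strand option, is not given in the sources used here. Per-library values in the authors' deposited table were log2 CPM with a prior count, with a floor of -3.35 (0.0978 CPM). The deposited table also held the authors' own log2 fold change, likelihood ratio score, p-value and adjusted p-value per gene. It further gave a counted length, which for 26 of the 34 members equalled the whole gene span, per the file's own columns. After the floor was subtracted, 100% of 118584 values were whole reads within a tolerance of 1e-06 reads, so reads and CPM were recovered, with the authors' scaling kept. Coordinates are those of the table, from base 1. Exon lengths and overlaps come from GENCODE on GRCm38, and promoter windows from RefSeq on GRCm38.p6.

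limma 3.58.1 in R 4.3.3 was fitted on log2(CPM + 1), with group alone in the model and a prior variance that follows the mean. It was also run on simulated data, and the outcome of that run is not given here. Tests were two-sided, with Benjamini-Hochberg adjustment at 0.05 over all genes tested. A gene was tested with 10 reads or more (at median library size) in 3 libraries and 15 in total; 12293 passed and 7471 did not. Groups and numbers come from the sample titles. Deviations from group means correlated at 0.78, 0.79 and 0.79 for same-numbered libraries and between -0.47 and -0.34 for others, negative in part because deviations cancel within a group. By this measure the numbers were taken to pair the samples. No day or animal shared by a number is named in the labels. The pairing therefore rests on the titles and these values, and the fit with the replicate block stands beside the unpaired one. Fold changes on this scale are understated for low genes. Members and gene lists were chosen with earlier results of these data known. All members are named; from the lists, only genes past either fit, at most 4 a direction by size. Some genes of the lists and marker sets are counted but not reported here by name. Alternatives covered scaling, filter, pseudocount, test and left-out libraries.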

Additional observations from a re-analysis of the deposited data

How the results depend on the processing

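Without the replicate block, the count of member receptors called by limma was 0 in each direction under each of the alternatives run, limma-voom included. At an unadjusted p under 0.05 there were up to 5 lower and up to 1 higher. The replicate block gave 1 higher and 5 lower, and moved the counts over all genes from 44 to 1156 higher and from 9 to 1374 lower. With no filter on low counts (16784 genes with at least 1 read, since genes without reads have no variance), the unpaired fit called 28 genes higher and 3 lower, and the blocked fit 0 members higher, 4 lower and 911 of all genes lower. Leaving out 1 library at a time gave 8 to 25 genes higher and 0 to 5 lower in the unpaired fit; a count of 0 lower stood beside 303 or 489 genes lower at an unadjusted p under 0.05. Leaving out 1 number at a time from the blocked fit gave 0 to 1 members higher and 3 to 6 lower: without number 2 Rarb and Thrb were lost, without number 3 Esrra and Ppard, and Rxrg joined without number 1 and Nr2f6 without number 3. Such fits rest on 2 pairs and on the spread shared over genes. Other scalings, pseudocounts of 0.1 and 5 CPM, a filter at 1 CPM, the deposited log2 values and limma-voom left 1 higher and 5 lower in the blocked fit. No library or number left out, scaling or pseudocount turned the sign of the 6 called members.

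Members near 0, none of them called, changed sign when libraries were left out. In the unpaired fit the log2 difference ranged from -0.035 to 0.23 for Ppara, -0.21 to 0.24 for Pparg, -0.13 to 0.031 for Rxrb, -0.0037 to 0.27 for Rarg, -0.29 to 0.011 for Thra and -0.082 to 0.092 for Rora. It ranged from -0.094 to 0.077 for Nr2c2, -0.49 to 0.31 for Pgr, -0.0999 to 0.0202 for Nr4a1, -0.082 to 0.13 for Nr4a2 and -0.15 to 0.073 for Nr6a1. With the replicate block the ranges were -0.12 to 0.045 for Pparg, -0.069 to 0.011 for Rxrb, -0.049 to 0.0195 for Rora, -0.098 to 0.031 for Nr2c2, -0.22 to 0.033 for Pgr, -0.15 to 0.039 for Nr4a1, -0.031 to 0.061 for Nr4a2 and -0.15 to 0.067 for Nr6a1. Under median-of-ratios scaling Rora was at 0.000121 in both fits. The cause was not tested. Depth limits the 9 untested members, which had between 0 and 52 reads over all 6 libraries.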
